A study of Homo sapiens with 24 samples.

Results

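The genes examined here were those of the aminoacyl-tRNA synthetases, the enzymes that load each amino acid onto its transfer RNA (tRNA). Members were the rows of the deposited count table whose gene symbol equals that of a human synthetase, and all 35 were found under their current symbols among 28307 genes. They comprised 19 cytosolic enzymes or subunits and 16 mitochondrial enzymes, whose symbols end in 2, and all 35 had enough counts to be tested in each comparison. RNA came from a pair of established human cell lines, SUM159 from breast cancer and SW620 from colon cancer. Adherent cells were exposed for 30 h to Nifuroxazide (NIF), a nitrofuran antibiotic, or to its vehicle DMSO, and were sorted by aldehyde dehydrogenase activity. The RNA-seq methods of the paper do not state clearly which of these steps came first. The bright fraction (ALDHbr), labelled as cancer stem cells, and the negative fraction (ALDHneg) gave 8 groups of 3 libraries, 24 in all. The dose of NIF is not given in the labels. The paper reports its final concentrations by cell line in a supplement not read here, so the dose may differ between the lines.

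Synthetases of the cytosol serve the ribosomes that translate nuclear messages, whereas the mitochondrial set is encoded by separate nuclear genes, imported, and serves the translation of the few proteins of the mitochondrial genome. GARS1 and KARS1 supply both compartments, EPRS1 joins the glutamate and proline activities in a single chain, and the cytosolic phenylalanine enzyme is built from FARSA and FARSB. Several cytosolic members sit with scaffold proteins in the multisynthetase complex. When charged tRNA runs short, the kinase GCN2 (EIF2AK4) slows initiation and favours translation of ATF4, a transcription factor with known targets in amino acid synthesis, amino acid transport and tRNA charging.

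The libraries held between 30253187 and 43127948 counts (median 36520935), of which the 35 members took 146266 to 241588, and the lowest count of any member in any library was 209 (PARS2). Levels are given in CPM, counts scaled to library size, after TMM scaling within a line, and since they are not divided by transcript length they compare a gene between libraries, not genes with each other. The labels were checked against markers. SUM159 libraries had 8 of 8 mesenchymal markers and 0 of 8 colon epithelial markers at a median of 1 CPM or more, and SW620 libraries had 2 and 6 of 8, with CDX1 and CDX2 below 1 CPM. ALDH1A1, the enzyme that the sort is meant to follow, averaged 135 ± 27.7 CPM in ALDHbr and 0.480 ± 0.0601 CPM in ALDHneg cells of SUM159 under DMSO, and 1314 ± 51.3 and 901 ± 19.3 CPM in SW620 (mean ± SD, n = 3). Under NIF it averaged 955 ± 31.8 and 549 ± 13.4 CPM in SW620, and its part in the synthetase values was not tested. Replicate 2 of the SW620 ALDHbr DMSO group stood apart: without it the genes that differed between the sorted fractions of SW620 under DMSO went from 1577 to 5487. The counts of members called in each comparison that uses it, and those of most lists, are therefore also given without it. Counts by complex, catalytic class, promoter match and amino acids with opposed calls are given with all libraries only. In bulk RNA of sorted cells, fewer cells with a transcript and less transcript per cell cannot be told apart.

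In SW620 ALDHbr cells most cytosolic synthetase genes rose under NIF, whereas the mitochondrial ones that changed mostly fell. Of the 19 cytosolic members, 12 rose, 5 fell and 2 did not pass the test (median log2 fold change 0.41), whereas of the 16 mitochondrial members 1 rose, 6 fell and 9 did not pass (median -0.10). Over all 13953 genes tested in this comparison, 21.4% rose and 21.9% fell, and the median was -0.01. The test was edgeR's quasi-likelihood F test with Benjamini-Hochberg adjustment over all genes tested, at an adjusted p of 0.05 and with no minimum fold. Without replicate 2 of the DMSO group, 18 cytosolic and 8 mitochondrial members passed instead of 17 and 7, with 26.1% of genes higher and 24.3% lower.

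The class means moved the same way in each library. In SW620 ALDHbr cells the mean log2 CPM of the cytosolic members was 7.47, 7.38 and 7.50 under DMSO and 7.83, 7.87 and 7.87 under NIF. That of the mitochondrial members was 5.28, 5.23 and 5.31 under DMSO and 5.12, 5.14 and 5.13 under NIF. Neither pair of groups overlapped. The distance between the class means, which also holds differences in transcript length, widened from 2.18 ± 0.02 to 2.73 ± 0.01 (mean ± SD, n = 3) in ALDHbr and from 2.20 ± 0.02 to 2.803 ± 0.000797 in ALDHneg cells. In SUM159 it was 2.52 ± 0.06 under DMSO and 2.51 ± 0.08 under NIF in ALDHbr cells, and 2.47 ± 0.04 and 2.49 ± 0.04 in ALDHneg cells, so that the groups overlapped. In SUM159 ALDHbr cells both class means were slightly higher under NIF in each replicate, from 7.80, 7.82 and 7.82 to 7.85, 7.87 and 7.91 for the cytosolic and from 5.30, 5.35 and 5.24 to 5.36, 5.42 and 5.31 for the mitochondrial members, where only the mitochondrial groups overlapped.

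**Figure D1:**
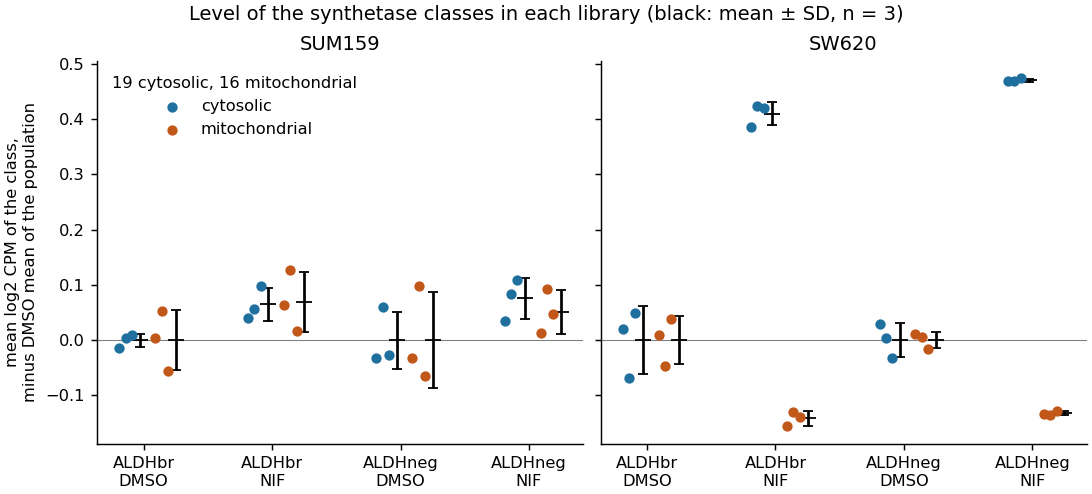
Mean log2 CPM of the 19 cytosolic and the 16 mitochondrial synthetase genes in each of the 24 libraries, each shown minus the DMSO mean of its own line and sorted fraction, with mean and SD of 3 libraries in black. In SW620 all 6 NIF libraries lie above the DMSO libraries for the cytosolic class and below them for the mitochondrial class, whereas in SUM159 the NIF and DMSO libraries overlap except for the cytosolic class of ALDHbr cells.

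The members that rose most in SW620 ALDHbr cells were WARS1, SARS1 and AARS1, which charge tryptophan, serine and alanine. WARS1 (chr14:100333790-100376327, GRCh38) stood at 87.5, 91.8 and 97.3 CPM in the DMSO libraries and at 213, 213 and 201 CPM in the NIF libraries. All NIF libraries were more than 100 CPM above all DMSO libraries, a log2 fold change of 1.18 ± 0.05 (± SE, adjusted p = 4.61e-10) or 2.27-fold. SARS1 (chr1:109213893-109238182) stood at 153, 133 and 148 CPM under DMSO and at 311, 324 and 337 CPM under NIF. Its groups did not overlap either, and its log2 fold change was 1.16 ± 0.06 (adjusted p = 2.16e-09). AARS1 (chr16:70252298-70289506) stood at 128, 118 and 136 CPM under DMSO and 262, 279.7 and 275 CPM under NIF, a change of 1.10 ± 0.06 (adjusted p = 2.53e-09).

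Just below them were CARS1, the cysteine enzyme, and GARS1, the glycine enzyme of both compartments. CARS1 went from 74.3, 68.5 and 78.7 to 144, 149.6 and 151 CPM (1.01 ± 0.06, adjusted p = 8.32e-09). GARS1 (chr7:30594735-30634033) went from 224, 223 and 234 to 444, 458 and 464 CPM (1.00 ± 0.04, adjusted p = 4.82e-10), and so had about doubled in each library. EPRS1, the joint glutamate and proline enzyme, stood at 235, 265 and 247 CPM under DMSO and 444, 421 and 398 CPM under NIF. Its lowest NIF library was 1.5 times its highest DMSO library, and its log2 fold change was 0.76 ± 0.06 (adjusted p = 2.46e-07). The other 6 that rose did so by less: YARS1 (tyrosine, 0.67), MARS1 (methionine, 0.65), NARS1 (asparagine, 0.50), LARS1 (leucine, 0.41), TARS1 (threonine, 0.33) and IARS1 (isoleucine, 0.32), on the log2 scale. The 12 that rose had no overlap between the NIF and DMSO libraries, where 22.5% of all genes tested lay wholly higher under NIF.

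MARS1 needs a remark on its place. On chromosome 12 the annotated end of MARS1 (chr12:57488068-57516652) and that of DDIT3, a stress-induced transcription factor transcribed from the other strand, overlap by 65 bp, and whether reads were counted by strand is not given in the sources used here. DDIT3 rose by 1.66 ± 0.12 on the log2 scale in the same comparison. Its counts were 461, 323 and 452 under DMSO and 1208, 1035 and 1180 under NIF, against 8221, 6154 and 7411 and then 11079, 9398 and 9581 for MARS1. No reads were reassigned between them here.

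Short stretches of promoter are shown because 6 of the cytosolic members that rose hold the same letters. The pattern TGATGNAA (N is any base, searched on both strands) is the core of the CARE element, the known binding pattern of ATF4 with its C/EBP partners. It was sought in RefSeq promoters on GRCh38.p14, from 250 bases before to 50 bases after a start, taking the entry listed first where a gene has several, as 9 members do. The pattern was chosen after the expression values had been seen. A total of 30 of the 35 members had an entry, and those without were LARS1, VARS1, YARS1, AARS2 and VARS2. Each line below gives 30 bases, 5′ to 3′ in the direction of the gene, with the match in capitals, which reads TTGCATCA where it lies on the other strand:
AARS1 (alanine, chr16:70289675-70289704, minus strand): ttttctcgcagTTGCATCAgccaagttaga
CARS1 (cysteine, chr11:3057407-3057436, minus strand): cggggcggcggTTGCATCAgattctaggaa
IARS1 (isoleucine, chr9:92293692-92293721, minus strand): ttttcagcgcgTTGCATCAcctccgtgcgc
MARS1 (methionine, chr12:57488053-57488082, plus strand): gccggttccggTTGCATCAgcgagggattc
NARS1 (asparagine, chr18:57621804-57621833, minus strand): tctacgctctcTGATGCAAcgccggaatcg
TARS1 (threonine, chr5:33440956-33440985, plus strand): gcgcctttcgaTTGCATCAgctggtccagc
YARS2 (mitochondrial tyrosine, chr12:32756076-32756105, minus strand): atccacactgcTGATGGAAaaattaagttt

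The match was in 6 of 16 cytosolic promoters and in 1 of 14 mitochondrial promoters, against 1003 of the first-listed promoters of 27305 genes (3.67%). All 6 cytosolic matches had C at the open position, TGATGCAA, which was in 252 of those promoters (0.923%), and the mitochondrial match was TGATGGAA. Of the 10 cytosolic members that rose in SW620 ALDHbr cells and have an entry, 6 had the match, and none of the 4 that fell or of the 2 that did not pass had it. WARS1, SARS1, GARS1 and EPRS1, which also rose, did not hold these letters in this window. With every entry of a gene searched, GARS1 had a match in its other window, giving 7 of 16 cytosolic and 1 of 14 mitochondrial members against 4.46% of all genes. The matches in CARS1, MARS1, IARS1, NARS1 and TARS1 lay within 14 bases of the start of the entry and that of AARS1 lay 187 bases before it. For TARS1 that start lies 269 bases after the outermost start of the gene, and for the other 5 it is the outermost start. A match is a description of the letters and not evidence of binding, which was not measured.

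The cytosolic members that fell in SW620 ALDHbr cells were KARS1, FARSB, VARS1, QARS1 and FARSA. KARS1, the lysine enzyme of both compartments (chr16:75627724-75647665), went from 318, 317 and 346 to 251, 263 and 262 CPM. Its groups did not overlap and its log2 fold change was -0.34 ± 0.05 (adjusted p = 1.02e-04). FARSB, a phenylalanine subunit, went from 117, 111 and 121 to 93.3, 97.3 and 97.8 CPM (-0.27 ± 0.05, adjusted p = 4.22e-04). VARS1, the valine enzyme, went from 313, 285 and 309 to 244, 257 and 255 CPM (-0.26 ± 0.05, adjusted p = 0.001). QARS1, the glutamine enzyme, went from 144, 125 and 142 to 114, 113 and 117 CPM (-0.26 ± 0.06, adjusted p = 0.00169). These decreases were all smaller than 0.35 on the log2 scale, and 10 cytosolic members rose by more than any cytosolic member fell.

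FARSA, the other phenylalanine subunit, was the exception among them in its libraries, which overlapped. It stood at 122, 102 and 119.9 CPM under DMSO and 91.5, 98.2 and 104 CPM under NIF, with a log2 fold change of -0.23 ± 0.07 (adjusted p = 0.0172). The call was lost without NIF replicate 1 (adjusted p = 0.0750), without DMSO replicate 1 (0.0760) and without DMSO replicate 3 (0.0679). HARS1 (histidine, 0.14 ± 0.06, adjusted p = 0.0842) and RARS1 (arginine, -0.11 ± 0.07, adjusted p = 0.213) did not pass. Of the 7 members held in the multisynthetase complex, 4 rose (EPRS1, MARS1, LARS1, IARS1), 2 fell (KARS1, QARS1) and RARS1 did not pass, so that subunits of a single complex went both ways. Among cytosolic members of catalytic class I, 6 of 9 rose and 2 fell, and of class II 5 of 9 rose and 3 fell, EPRS1 having both domains. Of all genes tested 21.4% rose and 21.9% fell. The shares that fell, 28.6% of the complex, 22.2% of class I and 33.3% of class II, were not far from that of all genes. No test was made over these groups.

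**Figure D2:**
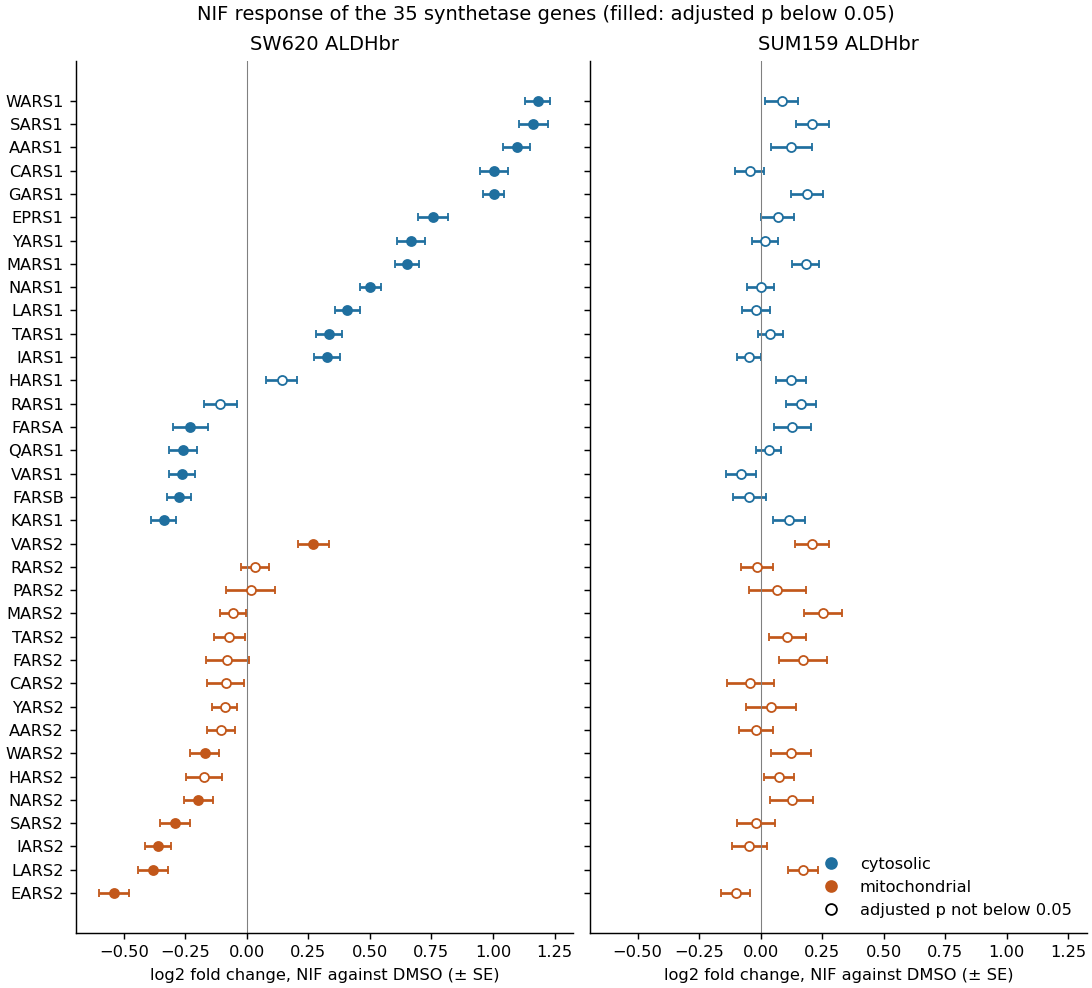
Log2 fold change of each synthetase gene under NIF against DMSO in ALDHbr cells of both lines, with SE from the edgeR fit, filled where the adjusted p is below 0.05. In SW620 12 cytosolic members are filled on the right and 5 on the left, 6 mitochondrial members are filled on the left and VARS2 alone on the right. In SUM159 no point is filled, the fit shown being without the replicate block.

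Among the mitochondrial members of SW620 ALDHbr cells the largest decrease was that of EARS2 (chr16:23520754-23557375), which loads glutamate onto the mitochondrial glutamate and glutamine tRNAs. It stood at 71.4, 78.8 and 75.9 CPM under DMSO and 54.1, 53.1 and 48.2 CPM under NIF. The groups did not overlap, and the log2 fold change was -0.54 ± 0.06 (adjusted p = 7.84e-06), or 0.688 times the DMSO level. The subunits of the amidotransferase that completes mitochondrial glutamine tRNA were measured beside it: QRSL1 fell by 0.43 (adjusted p = 4.82e-05), GATB fell by 0.55 (adjusted p = 2.18e-04), and GATC was at -0.09 (adjusted p = 0.165). MTFMT, which formylates the mitochondrial initiator tRNA, fell by 0.21 (adjusted p = 0.0153).

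LARS2, the leucine enzyme, went from 36.5, 39.7 and 40.9 to 30.1, 31.2 and 28.7 CPM (-0.38 ± 0.06, adjusted p = 1.67e-04). IARS2, the isoleucine enzyme, went from 234, 203 and 225 to 171, 174 and 170.0 CPM (-0.36 ± 0.05, adjusted p = 1.12e-04). Neither had overlapping groups. SARS2 also fell (-0.29 ± 0.06, adjusted p = 0.00159), as did NARS2 (-0.20 ± 0.06, adjusted p = 0.0137) and WARS2 (-0.17 ± 0.06, adjusted p = 0.0285), which load serine, asparagine and tryptophan. The NARS2 call was lost without DMSO replicate 3 (adjusted p = 0.0660). The WARS2 call, with 20.8, 20.4 and 21.7 CPM under DMSO and 19.2, 17.9 and 18.7 CPM under NIF, was lost without NIF replicate 2 (adjusted p = 0.111), NIF replicate 3 (0.0538), DMSO replicate 1 (0.0512) or DMSO replicate 3 (0.0920), and by DESeq2 (0.0502).

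VARS2, the valine enzyme, was the only mitochondrial member that rose. It stood at 27.6, 25.4 and 28.9 CPM under DMSO and at 34.0, 33.0 and 31.7 CPM under NIF, without overlap (0.27 ± 0.06, adjusted p = 0.00302). RARS2 (0.03 ± 0.06) and PARS2 (0.02 ± 0.10), the arginine and proline enzymes, had the next highest values and did not pass (adjusted p = 0.68 and 0.919). PARS2 was the least counted member, at 10.2, 10.1 and 8.78 and 10.4, 9.9 and 9.09 CPM, and had the largest SE of the 35. The other 7 that did not pass, AARS2, CARS2, FARS2, HARS2, MARS2, TARS2 and YARS2, lay between -0.17 (HARS2) and -0.06 (MARS2), all below 0.

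**Figure D3:**
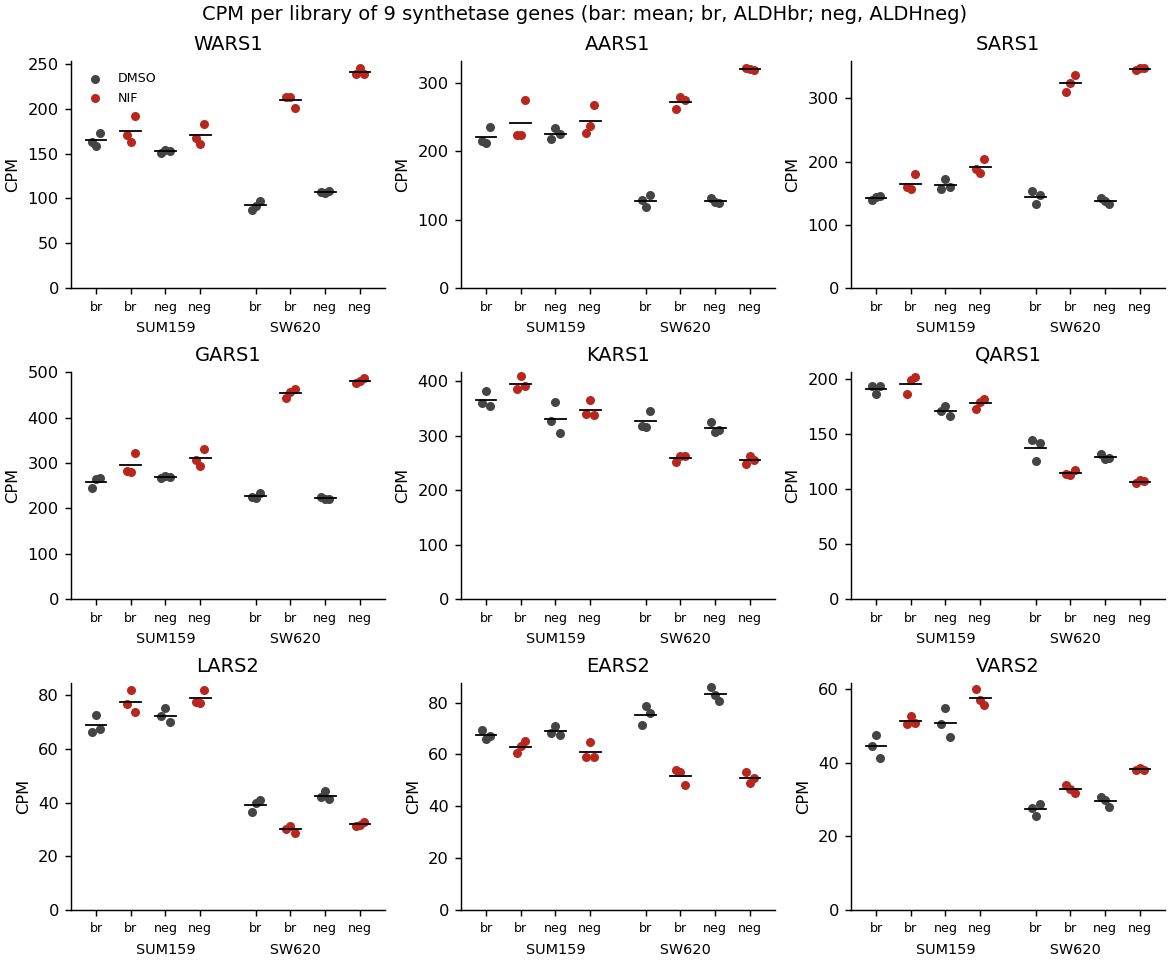
CPM of 9 synthetase genes in each of the 24 libraries, by line, sorted fraction (br, ALDHbr; neg, ALDHneg) and treatment, with a bar at the mean of 3 libraries and each axis starting at 0. In SW620 the NIF libraries of WARS1, AARS1, SARS1, GARS1 and VARS2 lie above the DMSO libraries and those of KARS1, QARS1, LARS2 and EARS2 below them, in both fractions.

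The contrast of compartments was then read amino acid by amino acid. A total of 13 amino acids have a single cytosolic and a single mitochondrial enzyme that share a name, and in SW620 ALDHbr cells the cytosolic log2 fold change was the higher of the pair for 11 of 13. The median difference within a pair was 0.71, and it ran from -0.53 to 1.45 (without DMSO replicate 2 also 11 of 13, median 0.75). For 5 amino acids the cytosolic enzyme rose and the mitochondrial enzyme fell: serine (1.16 and -0.29), tryptophan (1.18 and -0.17), leucine (0.41 and -0.38), asparagine (0.50 and -0.20) and isoleucine (0.32 and -0.36). For 5 more, alanine, cysteine, methionine, threonine and tyrosine, the cytosolic enzyme rose and the mitochondrial enzyme did not pass. Valine was the reverse: VARS1 fell by 0.26 and VARS2 rose by 0.27. For histidine and arginine neither enzyme passed. HARS1 and HARS2 lie on chromosome 5 with 84 bp between them, in opposite directions, and stood at 0.14 and -0.17. None of the 13 amino acids had both enzymes higher. These are counts of genes within the same libraries, and no test was made over the pairs.

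**Figure D4:**
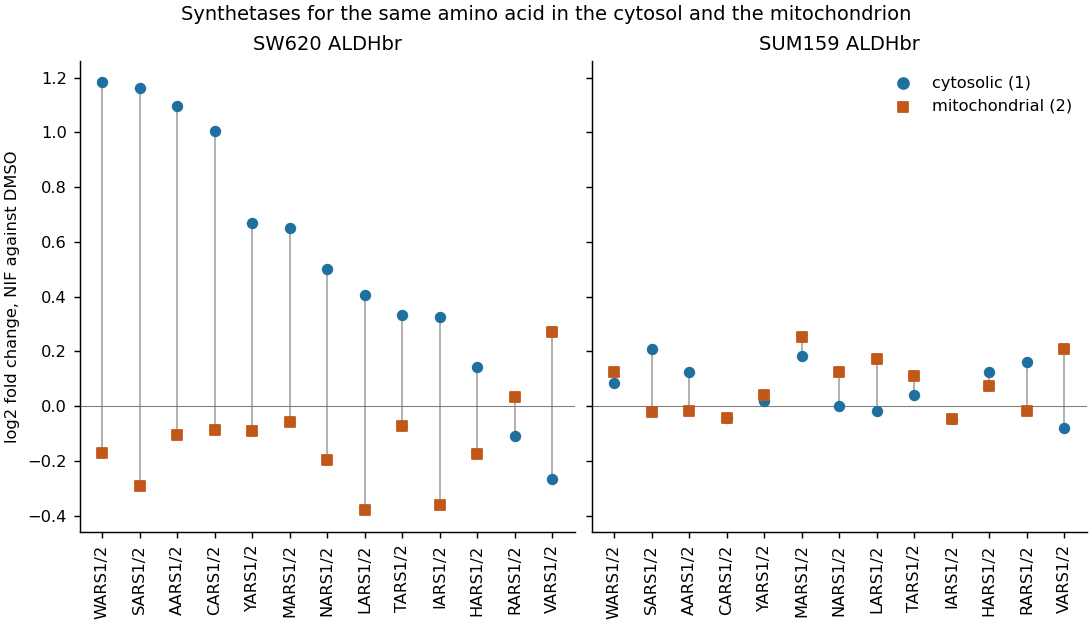
Log2 fold change under NIF against DMSO of the cytosolic (circle) and the mitochondrial (square) enzyme for 13 amino acids in ALDHbr cells, joined by a line. In SW620 the circle is the upper symbol for all but arginine and valine, and in SUM159 it is the upper symbol for 4 of 13, with all symbols between -0.08 and 0.25.

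In SW620 ALDHneg cells, which are separate libraries with their own DMSO controls, 13 of 19 cytosolic members rose and 4 fell, with a median of 0.49, and 1 of 16 mitochondrial members rose and 5 fell, with a median of -0.06. In this comparison 22.3% of the genes tested rose and 22.7% fell, and with scaling by library size alone the share of higher genes among the calls went from 49.5% to 39.4%, while 13 cytosolic members still rose. All 12 cytosolic members that rose in ALDHbr cells also rose here, joined by HARS1 (0.21 ± 0.06, adjusted p = 0.0151). AARS1 stood at 132, 125 and 125 CPM under DMSO and 321, 320.4 and 319 CPM under NIF (1.33 ± 0.06, adjusted p = 3.05e-10). SARS1 stood at 143, 138 and 133 and 344, 348 and 347 CPM (1.33 ± 0.06, adjusted p = 4.63e-10). WARS1 stood at 107, 107 and 108 and 239, 245 and 238 CPM (1.17 ± 0.05, adjusted p = 4.01e-10). For these 3 genes the replicates lay closer together than in ALDHbr cells, and the groups were far apart, where 31.5% of all genes tested lay wholly higher and 32% wholly lower under NIF.

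The decreases were shared as well. KARS1 (-0.30 ± 0.05), FARSB (-0.29 ± 0.05), QARS1 (-0.27 ± 0.06) and VARS1 (-0.33 ± 0.05) fell in both fractions, while FARSA was at -0.18 ± 0.07 (adjusted p = 0.0525). EARS2 went from 85.9, 83.1 and 80.7 to 53.2, 48.8 and 51.1 CPM (-0.71 ± 0.06, adjusted p = 4.64e-07), LARS2, IARS2, SARS2 and NARS2 fell again, VARS2 rose again (0.37 ± 0.06), and WARS2 was at -0.11 ± 0.06 (adjusted p = 0.129). CARS2, the cysteine enzyme, had the next highest mitochondrial value at 0.01 ± 0.07 (adjusted p = 0.89). The cytosolic enzyme had the higher change in 12 of 13 amino acid pairs.

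Whether the response itself differed between the sorted fractions of SW620 was tested with the interaction contrast. By edgeR 0 of 35 members passed, 1 had an unadjusted p below 0.05, and DESeq2 also called 0. That member was AARS1, whose rise was smaller in ALDHbr cells by 0.23 on the log2 scale (-0.23 ± 0.08, adjusted p = 0.673). Differences over the 35 ran from -0.23 to 0.17. In this contrast 0.00717% of genes were called higher and 0% lower, so a call was rare for any gene, and the values do not show that the fractions respond alike. Without ALDHbr DMSO replicate 2, 0 members passed as well, with 0.141% of genes higher and 0.0495% lower.

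**Figure D5:**
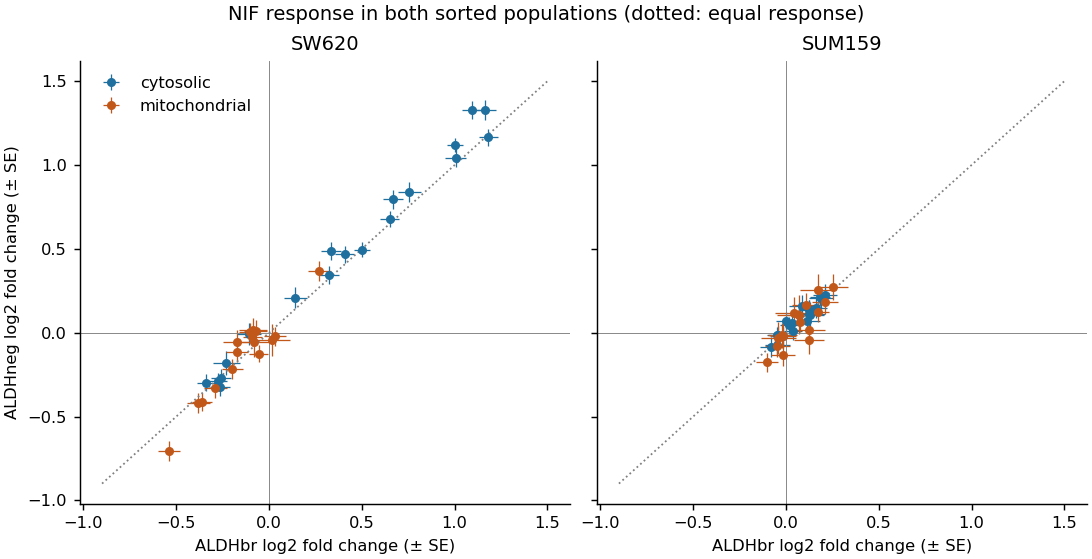
Log2 fold change under NIF against DMSO in ALDHneg (vertical) against ALDHbr cells (horizontal) for the 35 synthetase genes in each line, with SE in both directions and a dotted line of equal response. In SW620 the points run along the line from EARS2 at the lower left to SARS1, AARS1 and WARS1 at the upper right, and in SUM159 they gather between about -0.2 and 0.3.

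In SUM159 ALDHbr cells the classes did not part in this way. By edgeR 0 of 19 cytosolic and 0 of 16 mitochondrial members passed, 4 and 3 had an unadjusted p below 0.05, and DESeq2 called 2 and 1. Over all 14953 genes tested 0.936% rose and 2.23% fell. The medians were 0.07 for both classes, against -0.003 for all genes. Same-numbered SUM159 libraries deviated together and were taken as pairs, which the labels do not state. In an edgeR fit blocked by replicate 4 cytosolic members rose, GARS1 (0.19 ± 0.05, adjusted p = 0.0105), MARS1 (0.18 ± 0.04, adjusted p = 0.0061), RARS1 (0.16 ± 0.05, adjusted p = 0.0246) and SARS1 (0.21 ± 0.05, adjusted p = 0.00933). In that fit 3 mitochondrial members rose, LARS2 (0.17 ± 0.05, adjusted p = 0.0307), MARS2 (0.25 ± 0.06, adjusted p = 0.00875) and VARS2 (0.21 ± 0.06, adjusted p = 0.0135). The block raised calls over all genes too, to 5.77% higher and 7.56% lower.

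These changes were small and ran upward in both classes. SARS1 stood at 139, 144 and 145 CPM under DMSO and 159, 157 and 179.7 CPM under NIF, without overlap (0.21 ± 0.07 without the block, adjusted p = 0.105). GARS1 stood at 246, 264 and 266 and 282, 281 and 322 CPM (0.19 ± 0.07, adjusted p = 0.14). MARS1 stood between 216 and 222 CPM under DMSO and between 237 and 256 CPM under NIF (0.18 ± 0.05, adjusted p = 0.0827). NIF replicate 3 was the highest library of all 3 genes. MARS2, the mitochondrial methionine enzyme, stood at 28.6, 28.04 and 25.6 CPM and 32.3, 35.6 and 30.2 CPM (0.25 ± 0.08, adjusted p = 0.102). VARS2 stood at 44.5, 47.6 and 41.3 and 50.7, 52.8 and 50.9 CPM (0.21 ± 0.07, adjusted p = 0.127), again without overlap, and 11% of all genes tested lay wholly higher under NIF.

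Of the genes that led in SW620, SARS1 and GARS1 passed in SUM159 ALDHbr cells with the block, as given above. WARS1 and AARS1 did not pass with or without it. WARS1 stood at 163, 159 and 173 CPM under DMSO and 170.2, 163 and 192 CPM under NIF (0.09 ± 0.07, adjusted p = 0.575). AARS1 stood at 215, 212 and 236 and 224, 224 and 275 CPM (0.13 ± 0.08, adjusted p = 0.498), the 275 CPM of NIF replicate 3 being well above the other two. CARS1 (-0.04 ± 0.06), EPRS1 (0.07 ± 0.07), KARS1 (0.12 ± 0.07) and QARS1 (0.03 ± 0.05) did not pass. The lowest cytosolic values were those of VARS1 (-0.08 ± 0.06, adjusted p = 0.555) and IARS1 (-0.05 ± 0.05, adjusted p = 0.702), and the lowest mitochondrial values those of EARS2 (-0.10 ± 0.06, adjusted p = 0.4) and IARS2 (-0.05 ± 0.07, adjusted p = 0.807). EARS2 stood at 69.6, 66.1 and 67.1 CPM under DMSO and 60.6, 63.2 and 65.3 CPM under NIF, and was the only member lower in every NIF library than in every DMSO library, as were 12.2% of all genes tested. PARS2 was at 0.07 ± 0.12 (adjusted p = 0.832).

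In SUM159 ALDHneg cells 1 cytosolic member rose, MARS1, from 215, 226 and 218 to 243, 257 and 265 CPM (0.21 ± 0.05, adjusted p = 0.0422), where 1.1% of genes rose and 2.2% fell. The call was near the threshold: it was lost without NIF replicate 1 (adjusted p = 0.0608), 2 (0.0792) or 3 (0.178) and without DMSO replicate 1 (0.148) or 3 (0.121). By edgeR 0 mitochondrial members passed, 5 had an unadjusted p below 0.05 and DESeq2 called 1, and without DMSO replicate 2 the count was 2. With the replicate block 5 cytosolic members rose, MARS1 (adjusted p = 0.00165), GARS1 (0.00545), SARS1 (0.00556), WARS1 (0.0306) and RARS1 (0.0425). Of the mitochondrial members MARS2 (0.00392), VARS2 (0.0277) and FARS2 (0.0395) then rose and EARS2 (-0.18 ± 0.05, adjusted p = 0.026) fell, with 6.1% of all genes higher and 7.08% lower. The highest values without the block were those of SARS1 (0.22 ± 0.07), MARS1 and GARS1 (0.21 ± 0.07) among cytosolic members and of MARS2 (0.27 ± 0.08) and FARS2 (0.25 ± 0.10) among mitochondrial members. The lowest were those of VARS1 (-0.09 ± 0.06) and FARSB (-0.07 ± 0.07), and of EARS2 (-0.18 ± 0.06) and RARS2 (-0.13 ± 0.07).

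The NIF response did not differ detectably between the sorted fractions of SUM159: by edgeR 0 of 35 members passed, 0 had an unadjusted p below 0.05, and DESeq2 called 0. The differences ran from -0.08 to 0.17 on the log2 scale, and 0% of genes were called higher and 0% lower, with 238 of 14953 genes at an unadjusted p below 0.05. With the block 0 members passed as well, with 0.00669% of genes higher and 0.0334% lower.

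The difference of the responses between the lines was tested in a fit of all 24 libraries, over 16271 genes, of which 12.4% had a higher and 10.7% a lower change in SW620 than in SUM159 ALDHbr cells. Of the cytosolic members 12 had a higher change in SW620 and 4 a lower, and of the mitochondrial members 0 had a higher and 7 a lower change. The 12 were those that rose in SW620 ALDHbr cells, led by WARS1 (1.09 ± 0.09, adjusted p = 1.56e-09), CARS1 (1.05 ± 0.08, adjusted p = 1.39e-09) and AARS1 (0.97 ± 0.11, adjusted p = 3.34e-07). The 4 were KARS1 (-0.46 ± 0.09, adjusted p = 3.71e-04), FARSA (-0.36 ± 0.11, adjusted p = 0.0182), QARS1 (-0.29 ± 0.07, adjusted p = 0.00554) and RARS1 (-0.27 ± 0.09, adjusted p = 0.0338). With a block for the replicate number FARSB passed too, with 14.3% of genes higher and 12.6% lower (-0.23 ± 0.07, adjusted p = 0.0226). VARS1 did not pass (-0.19 ± 0.08, adjusted p = 0.0977). Without SW620 ALDHbr DMSO replicate 2, 18 cytosolic members (12 higher, 6 lower) and 8 mitochondrial members (all lower) differed, with 14.8% of genes higher and 13.3% lower.

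Of the mitochondrial members the line difference was widest for LARS2 (-0.55 ± 0.09, adjusted p = 3.61e-05), which fell in SW620 and stood at 66.2, 72.8 and 67.4 CPM under DMSO and 76.7, 82.0 and 73.7 CPM under NIF in SUM159. EARS2 followed (-0.44 ± 0.09, adjusted p = 4.81e-04). NARS2, IARS2, MARS2, WARS2 and SARS2 differed by -0.32 to -0.27, with adjusted p from 0.013 to 0.048. The count of 7 fell to 3 without SUM159 ALDHbr NIF replicate 2 and to 4 without replicate 2 of SW620 ALDHbr NIF or replicate 3 of the ALDHbr DMSO group of either line. VARS2, which had positive values in both lines, had a difference of 0.06 ± 0.10 (adjusted p = 0.745). Each line stands for itself and not for its tissue. If the NIF dose differed between the lines, line and dose cannot be told apart in these values.

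Under DMSO the sorted fractions differed little in these genes. In SUM159 under DMSO 4 members passed, where 10.7% of genes were higher and 12.3% lower in ALDHbr cells. QARS1 was higher in ALDHbr cells, at 193, 187 and 194 CPM against 171, 176 and 167 CPM (0.16 ± 0.05, adjusted p = 0.034). CARS1 was lower, at 86.9, 84.3 and 84.0 against 104, 102 and 95.5 CPM (-0.24 ± 0.06, adjusted p = 0.00746). WARS2 was lower as well, at 20.4, 20.6 and 18.7 against 24.2, 25.7 and 21.3 CPM (-0.25 ± 0.08, adjusted p = 0.0383), and so was SARS1 (-0.20 ± 0.07, adjusted p = 0.0454). None of the 4 had overlapping groups, where 18.1% of all genes tested lay wholly higher and 18.6% wholly lower in ALDHbr cells, and CARS1 kept its call without any single library. The SARS1 call was lost without each of the 6 libraries in turn (adjusted p = 0.0535 to 0.144), the WARS2 call without any but ALDHneg replicate 3 (0.0605 to 0.152), and the QARS1 call without replicate 1 or 3 of either fraction (0.0828 to 0.109). The count was 1 without ALDHbr replicate 1, ALDHbr replicate 3 or ALDHneg replicate 1.

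With the replicate block 9 members passed, 4 higher and 5 lower, with 17.9% of genes higher and 18.2% lower. The 4 higher, EPRS1 (adjusted p = 0.0409), KARS1 (0.013), LARS1 (0.0266) and QARS1 (0.00641), all belong to the multisynthetase complex. The 5 lower, CARS1 (7.25e-04), SARS1 (0.00521), SARS2 (0.0248), VARS2 (0.00892) and WARS2 (0.0084), do not. Without the block 6 of the 7 members of the complex had a positive difference (median 0.11), against 2 of the 12 other cytosolic members (median -0.02), a grouping that was noticed in these data and has no test here.

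In SW620 under DMSO 1 member passed, WARS1, where 5.45% of genes were higher and 5.86% lower in ALDHbr cells. It stood at 87.5, 91.8 and 97.3 CPM in ALDHbr and 107, 107 and 108 CPM in ALDHneg cells, without overlap, as 14.7% of all genes tested were wholly lower (-0.22 ± 0.05, adjusted p = 0.0148). The call was lost without ALDHbr replicate 1 (adjusted p = 0.0714) and without ALDHneg replicate 3 (0.0568). Without ALDHbr replicate 2, the library that stood apart, 9 members passed, 6 higher and 3 lower, with 18.6% of all genes higher and 20.2% lower. In that library the mean log2 CPM of the cytosolic members was 7.38, below the 7.47 and 7.50 of its replicates.

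Other genes of charging, of the amino acid response and of translation were taken from lists of known pathway genes, chosen with earlier results of these data known. The charging of tRNA itself was not measured. In SW620 ALDHbr cells, where 21.4% of all genes tested rose and 21.9% fell, 12 of 14 genes of the amino acid response rose and 1 fell. Their log2 fold changes ran from -0.48 to 3.50 (median 1.39). The highest was CHAC1, which degrades glutathione, at 3.92, 3.5 and 4.74 CPM under DMSO and 45.9, 42.6 and 49.2 CPM under NIF (3.50 ± 0.12, adjusted p = 4.21e-11). ATF4 stood at 295, 241 and 293 and 421, 455 and 504 CPM (0.74 ± 0.08, adjusted p = 4.16e-06). ASNS, asparagine synthetase, which makes the amino acid itself and is no tRNA synthetase, stood at 0.866, 1.09 and 0.79 and 5.61, 3.98 and 3.65 CPM (2.28 ± 0.19, adjusted p = 4.74e-07), so that its large fold rests on a level near 1 CPM. The gene that fell was ATF5 (-0.48 ± 0.07, adjusted p = 4.55e-05), a factor of the same family, and GCN1, which activates GCN2, was at -0.06 (adjusted p = 0.663). ALDHneg cells gave 12 higher and 1 lower again, with a median of 1.39, where 22.3% of all genes rose and 22.7% fell. In the line difference 11 of the 14 had a higher and 1 a lower change in SW620, as had 12.4% and 10.7% of all genes. Without SW620 ALDHbr DMSO replicate 2 the list gave 12 higher and 1 lower in ALDHbr cells, and 12 and 1 in the line difference. The shares of all genes were then 26.1% higher and 24.3% lower, and 14.8% and 13.3% in the line difference. The genes of the list moved in the same libraries as the cytosolic synthetases, and their part in the synthetase response was not tested.

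Of all genes tested in SUM159 0.936% rose and 2.23% fell in ALDHbr cells, and 1.1% and 2.2% in ALDHneg cells. In this line the same list gave 2 higher and 0 lower in ALDHbr cells (median 0.24). It gave 2 higher and 0 lower in ALDHneg cells (median 0.23). Those that rose were, in both fractions, CHAC1 (0.95 ± 0.22 in ALDHbr cells, adjusted p = 0.0284) and ATF5 (0.54 ± 0.07, adjusted p = 4.18e-04). ATF5 thus went up in SUM159 and down in SW620, from 72.0, 79.5 and 72.3 to 105, 107 and 112 CPM and from 105, 90.3 and 105 to 69.4, 70.0 and 75.7 CPM. ATF4 (0.26 ± 0.09, adjusted p = 0.125) and ASNS (0.14 ± 0.27, adjusted p = 0.854) did not pass. In the fit blocked by replicate 6 of the 14 rose in ALDHbr cells, ATF4 (0.27 ± 0.06, adjusted p = 0.00528), ATF5, CHAC1, PHGDH, PSAT1 and TRIB3, and 7 in ALDHneg cells, those 6 and SESN2, with 0 lower in either. With the block 5.77% of all genes were higher and 7.56% lower in ALDHbr cells, and 6.1% and 7.08% in ALDHneg cells. DESeq2 called 5 and 3 of the list higher in these fractions, among 854 and 855 genes called in either direction. Between the sorted fractions of SUM159 under DMSO 0 of the 14 were higher and 5 were lower in ALDHbr cells, with CHAC1 the lowest (-1.15 ± 0.22, adjusted p = 0.00131), and 8 were lower with the block. The shares of all genes were 10.7% higher and 12.3% lower, and 17.9% and 18.2% with the block.

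Of all genes tested in SW620 21.4% rose and 21.9% fell in ALDHbr cells, and 22.3% and 22.7% in ALDHneg cells. Without DMSO replicate 2 the ALDHbr shares were 26.1% and 24.3%. Of 14 charging partners 13 could be tested. In SW620 ALDHbr cells 1 rose (7.69%) and 3 fell (23.1%, near the share of all genes), with a median of -0.02. ALDHneg cells gave 3 and 4, and ALDHbr cells without DMSO replicate 2 gave 1 and 4. The 1 that rose was XPOT, the exporter of tRNA from the nucleus, at 244, 270.5 and 244 CPM under DMSO and 444, 427 and 388 CPM under NIF (0.73 ± 0.06, adjusted p = 2.46e-07). The 3 that fell were GATB, QRSL1 and MTFMT, all of them mitochondrial. The scaffolds of the multisynthetase complex did not pass in ALDHbr cells with all libraries: AIMP1 was at -0.02, AIMP2 at 0.03 and EEF1E1 at -0.16. Without DMSO replicate 2 EEF1E1 also fell in these cells (-0.21 ± 0.08, adjusted p = 0.0425). In ALDHneg cells EEF1E1 fell with the replicate block (-0.24 ± 0.09, adjusted p = 0.0499). In SUM159 0 of the 13 passed by edgeR in either fraction, with or without the block, 0 had an unadjusted p below 0.05, and DESeq2 called 0. Without the block 0.936% of all genes rose and 2.23% fell in ALDHbr cells, and 1.1% and 2.2% in ALDHneg cells.

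Of 9 mitochondrial translation factors, 0 rose and 3 fell in SW620 ALDHbr cells, MTRF1 (-0.34 ± 0.08, adjusted p = 0.00375), MRRF (-0.31 ± 0.06, adjusted p = 5.07e-04) and TSFM (-0.30 ± 0.09, adjusted p = 0.0151), which act in release, ribosome recycling and elongation. GFM2 was the highest of the list at 0.12 (adjusted p = 0.0762). Without DMSO replicate 2 of these cells 0 rose and 5 fell, and in ALDHneg cells 1 rose and 4 fell. Of all genes tested in SW620 21.4% rose and 21.9% fell in ALDHbr cells, and 22.3% and 22.7% in ALDHneg cells. Without that replicate the ALDHbr shares were 26.1% and 24.3%. Of 5 cytosolic elongation factors 2 rose in SW620 ALDHbr cells, EEF1A1, which brings charged tRNA to the ribosome (0.36 ± 0.06, adjusted p = 4.32e-04), and EEF2 (0.16 ± 0.05, adjusted p = 0.0208), and EEF1G was the lowest at -0.03. In SUM159 ALDHbr cells 0 of these 14 factors passed by edgeR, with 3 mitochondrial and 1 cytosolic factor at an unadjusted p below 0.05, TUFM, the mitochondrial elongation factor Tu, being the nearest (0.23 ± 0.06, adjusted p = 0.0664), and DESeq2 called 1 mitochondrial factor. With the block TUFM (0.23 ± 0.04, adjusted p = 8.91e-04) and EEF1D (0.17 ± 0.05, adjusted p = 0.0187) rose in ALDHbr cells, and GFM1 (adjusted p = 0.0131) and MTIF2 (0.0353) in ALDHneg cells. The block gave 5.77% of all genes higher and 7.56% lower in ALDHbr cells, and 6.1% and 7.08% in ALDHneg cells. Without the block 0.936% of all genes rose and 2.23% fell in ALDHbr cells.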

How the data were processed

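RNA of 24 libraries was made from total RNA with a stranded kit. Values are the whole-number, unnormalized read counts of each gene that the authors deposited, with gene symbol and Entrez number. Their processing notes list FastQC, STAR and the build GRCh38 without versions, and the counting tool, its strand setting and its annotation are not given in the sources used here. Reads shared by overlapping genes are therefore uncertain, and 20 of the 35 members overlap another RefSeq gene.

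Tests used edgeR 4.0.16 (R 4.3.3). Separate fits were made for the lines, each of 12 libraries and 4 groups, with filterByExpr, TMM normalization, quasi-likelihood F tests, Benjamini-Hochberg adjustment and a threshold of 0.05. The difference between lines came from a fit of all 24 libraries. SE is the absolute log2 fold change divided by the square root of F. CPM was computed on TMM-adjusted library sizes, and log2 CPM with 2 as the prior count. DESeq2 1.42.0, other scalings and filters, other sets of libraries in the fit and the replicate block were alternatives, some added after seeing the data, and the steps were tested on simulated data. Positions, promoters and gene overlaps come from RefSeq (GRCh38.p14).

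Groups came from the labels. The paper describes 3 independent experiments. Same-numbered libraries deviated together in SUM159 (correlation 0.125 to 0.451, above 0.1 in 18 of 18 pairs), so their numbers were taken to pair them, and not in SW620 (-0.278 to 0.214). Replicates differed by more than sampling noise (chi-square per gene 1.97 to 46.1 over 24 pairs). The members and lists were chosen with earlier results of these data known. Named with values were, in each comparison of NIF with DMSO, the 3 highest and 2 lowest cytosolic and the 2 highest and 2 lowest mitochondrial members, members called against most of their class, called members of the sort comparisons, GARS1, KARS1, EPRS1, QARS1, EARS2 and PARS2, the extremes of each list, and ATF4 and ASNS. Further genes were named after their values were seen.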

Additional observations from a re-analysis of the deposited data

Results flagged for a closer look

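The response of 16 cytosolic and 7 mitochondrial synthetase genes to NIF differed between ALDHbr cells of the lines, by a test of the difference itself in a fit of all 24 libraries (edgeR, Benjamini-Hochberg). The difference of the log2 fold changes, SW620 minus SUM159, was positive for WARS1 (1.09), CARS1 (1.05), AARS1 (0.97), SARS1 (0.95), GARS1 (0.81), EPRS1 (0.68), YARS1 (0.65), NARS1 (0.50), MARS1 (0.47), LARS1 (0.42), IARS1 (0.37) and TARS1 (0.29). Among cytosolic members it was negative for KARS1 (-0.46), FARSA (-0.36), QARS1 (-0.29) and RARS1 (-0.27). Among mitochondrial members it was negative for LARS2 (-0.55), EARS2 (-0.44), NARS2 (-0.32), IARS2 (-0.32), MARS2 (-0.31), WARS2 (-0.30) and SARS2 (-0.27). The share of genes with a higher change in SW620 was 12.4% and with a lower change 10.7%. Whether both lines had the same NIF dose is not known here.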

How the results depend on the processing

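The counts of members called under NIF in SW620 stayed within 1.5 times the reported ones under every alternative run, with 16 to 18 cytosolic and 5 to 8 mitochondrial members in ALDHbr and 17 and 6 to 7 in ALDHneg cells over the single libraries left out, and no called value changed direction. With the replicate block the SUM159 counts went from 4 to 9 members between the sorted fractions under DMSO, from 0 to 4 cytosolic and from 0 to 3 mitochondrial members in ALDHbr cells, and from 1 to 5 and from 0 to 4 in ALDHneg cells, and it moved no other count of members past 1.5 times. DESeq2 and the fit of all 24 libraries each gave 2 cytosolic and 1 mitochondrial member in SUM159 ALDHbr and 3 and 1 in ALDHneg cells. With only the groups compared in the fit, the sorted fractions under DMSO gave 2 members in SUM159 and 0 in SW620, and SUM159 ALDHneg cells 0 cytosolic members. Without a filter on low counts the sorted SUM159 fractions gave 1 member and the line difference 3 mitochondrial members. With single libraries left out, the sorted fractions gave 1 to 4 members in SUM159 and 0 to 9 in SW620, SUM159 ALDHneg cells gave 0 to 1 cytosolic and 0 to 2 mitochondrial members, and the line difference 3 to 8 mitochondrial members. The cause of these moves was not tested. In SW620 the replicate numbers did not pair the libraries (correlation above 0.1 in 1 of 18 pairs), and the block left 17 cytosolic and 7 mitochondrial members in ALDHbr cells. Calls of single members kept significance in 698 recomputed values and lost it in 44, those of FARSA, MARS1 (SUM159), NARS2, QARS1, SARS1 and WARS2 (SUM159 fractions), WARS1 (SW620 fractions) and WARS2 (SW620). The lists with the block or DESeq2, the pairs and lists without SW620 ALDHbr DMSO replicate 2, and the search of all promoter entries were chosen after seeing the data. Library-size scaling shifted the median of all genes by at most -0.06 on the log2 scale. Depth limited PARS2 most, with 209 counts in its lowest library, and intervals rest on 3 libraries a group.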
